A study of Mus musculus with 6 samples.

Results

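The enzymes described here add glucuronic acid or a sulfate group to drugs, hormones, bile pigments and plant or microbial products. They are 5 UDP-glucuronosyltransferase (UGT) genes and 5 sulfotransferase (SULT) genes, taken by mouse gene symbol as 10 of the 52550 Ensembl genes in the deposited tables. RNA was sequenced from epithelial cells of the colon of male Apc Min/+ mice. This strain carries a truncating mutation in 1 copy of the tumour suppressor Apc and forms intestinal adenomas. Mice aged 5 to 6 weeks were given either atorvastatin at 20 mg/kg, or 2% Tween 80 as the vehicle control, by mouth on alternate days, with 3 libraries per group. The study concerns colorectal cancer, statins and the tryptophan products of gut bacteria, and the comparison addresses what the drug changes in the RNA of the epithelium. The labels number the libraries as replicates without saying that each is a separate animal, so p-values measure the spread between these libraries, which may be technical.

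UGT enzymes sit in the membrane of the endoplasmic reticulum and use UDP-glucuronate as the donor. SULT enzymes lie in the cytosol and use 3′-phosphoadenosine-5′-phosphosulfate (PAPS). Both reactions make lipophilic compounds soluble enough for membrane pumps to export, and gut bacteria can split the glucuronides again. In humans, UGT1A1 glucuronidates bilirubin and takes part in the conversion of statin acids to lactones. Ugt1a6 is a classic target of the aryl hydrocarbon receptor, which binds bacterial indoles, and SULT1A1 makes indoxyl sulfate from the tryptophan product indoxyl.

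All Ugt1a genes lie in 1 nested locus on chromosome 1, where each has its own first coding exon and then uses the same later exons. Their values are therefore not independent. In GENCODE release M21 (GRCm38, which mm10 denotes), 58.9% of the exonic bases of Ugt1a1 were also exonic in another gene of the same strand, as were 50.3% of those of Ugt1a6a and 60.6% of those of Ugt1a6b. The later coding exons spanned the same 735 bases in the 9 Ugt1a genes of the files. The junctions below show what a read across the splice can and cannot tell apart. The end of the first coding exon is in lower case and the start of the common exon (chr1:88215044-88215073, plus strand) in capitals.
Ugt1a1: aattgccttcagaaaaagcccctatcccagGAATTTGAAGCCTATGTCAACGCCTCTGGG
Ugt1a6a: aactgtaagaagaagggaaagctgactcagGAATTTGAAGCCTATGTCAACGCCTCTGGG
Ugt1a6b: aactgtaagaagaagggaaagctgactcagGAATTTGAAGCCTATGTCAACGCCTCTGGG
Ugt1a7c: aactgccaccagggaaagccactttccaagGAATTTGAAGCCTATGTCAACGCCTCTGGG
The Ugt1a6a and Ugt1a6b junctions were identical over these 60 bases, and their first coding exons matched at 832 of 858 bases (96.97%). The first coding exon of Ugt1a1 matched that of Ugt1a6a at 53.5% of aligned positions. A noncoding gene on the opposite strand, Gm20528, also overlaps these exons, and the strand setting of the counting is not given in the sources used here.

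None of the 10 genes passed the test between atorvastatin and control. The files give FPKM, in which the fragments of a gene are divided by its length and by the mapped fragments of the library, and log2(FPKM + 1) was compared with limma over the 11644 genes that reached 1 FPKM in 3 or more libraries. All 10 members passed this filter. At an adjusted p under 0.05, 0 of 10 members were called, by the side of 0.404% of all tested genes (47). At an unadjusted p under 0.05, 1 member passed, Ugt2b35, beside 12.0% of all tested genes. The median log2 fold change was 0.053 over the members and 0.018 over all tested genes, and 8 members had a positive value, beside 57.3% of all tested genes.

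**Figure D1:**
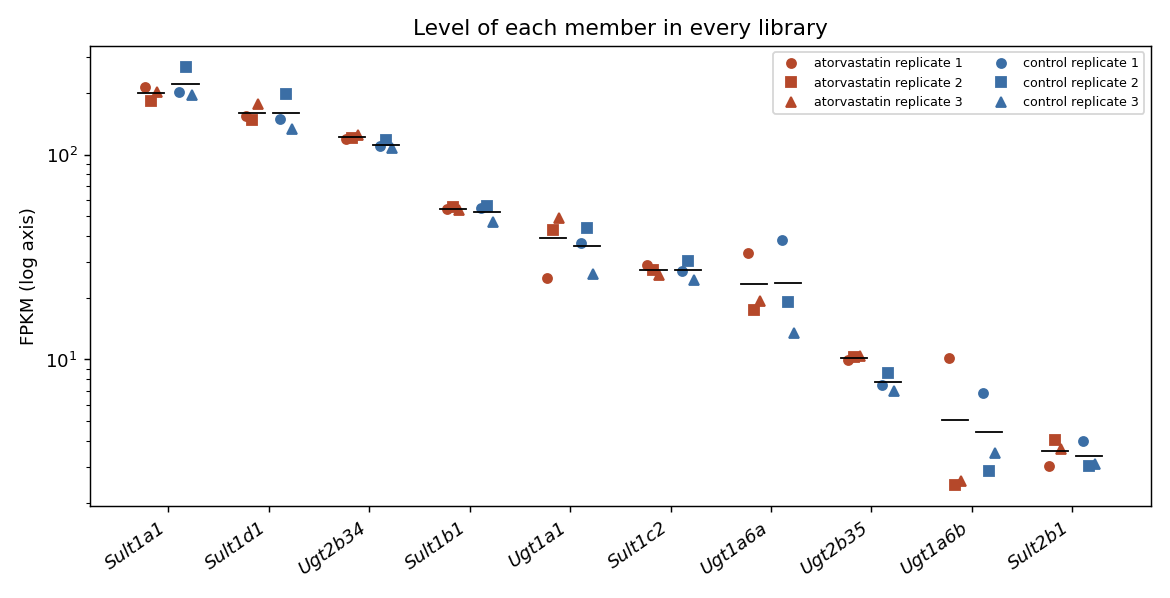
FPKM of each member on a log axis, with atorvastatin libraries in red and control libraries in blue, a marker shape for each replicate number and a line at the group mean. Ugt2b35 and Ugt2b34 are the genes whose groups do not overlap, and replicate 1 of both groups lies above the other libraries for Ugt1a6a and Ugt1a6b.

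Ugt1a1 encodes the bilirubin glucuronosyltransferase (ENSMUSG00000089960, chr1:88211959-88218997, plus strand). It had 24.9, 43.0 and 49.1 FPKM in the atorvastatin libraries, against 37.2, 43.7 and 26.2 FPKM in the control libraries. The lowest library was atorvastatin replicate 1, the next lowest was control replicate 3, and the groups overlapped. The log2 fold change was 0.10 ± 0.29 (SE, n = 3 each; limma adjusted p = 0.93), with a 95% interval of -0.59 to 0.79. On the FPKM + 1 scale that interval runs from 0.665-fold to 1.73-fold.

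Ugt1a6a and Ugt1a6b encode close copies of the phenol-conjugating form (ENSMUSG00000054545, chr1:88134809-88218997, and ENSMUSG00000090145, chr1:88103252-88219003, both plus strand). Ugt1a6a had 33.2, 17.4 and 19.3 FPKM with atorvastatin, against 38.5, 19.0 and 13.4 FPKM in control. Ugt1a6b had 10.1, 2.43 and 2.56 FPKM with atorvastatin, against 6.86, 2.85 and 3.49 FPKM in control. Both genes were highest in replicate 1 of each group, and the groups overlapped. The fold change of Ugt1a6a was 0.054 (log2), with a 95% interval of -0.92 to 1.03 (limma adjusted p = 0.974). For Ugt1a6b the log2 fold change was -0.0006, with an interval of -1.22 to 1.22 (limma adjusted p = 1.0). These intervals, taken before adjustment over genes, do not exclude changes of up to the size of their limits in either direction. The limits do not mark what the test could detect, since a call after adjustment would need a larger change. The SE was 0.40 for Ugt1a6a and 0.51 for Ugt1a6b. With replicate 1 of both groups left out, an alternative chosen after seeing the data, the log2 fold changes were 0.43 for Ugt1a1, 0.19 for Ugt1a6a and -0.25 for Ugt1a6b (limma adjusted p = 0.768, 0.843 and 0.655). The SE was then 0.17 for Ugt1a6a and 0.11 for Ugt1a6b, with 2 libraries per group.

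The 3 Ugt1a members varied between libraries of the same group far more than most genes. The SD within groups on the log2(FPKM + 1) scale was 0.78 for Ugt1a6b, 0.62 for Ugt1a6a and 0.44 for Ugt1a1. A larger SD was found for 29, 64 and 162 of the 11644 tested genes, or 0.249%, 0.55% and 1.39%. No other member had an SD above 0.23, and Ugt2b34, at 0.054, was steadier than 82.8% of the tested genes. FPKM carries no read totals, so the depth behind these values is unknown and counting error cannot be separated from the rest of the spread.

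**Figure D2:**
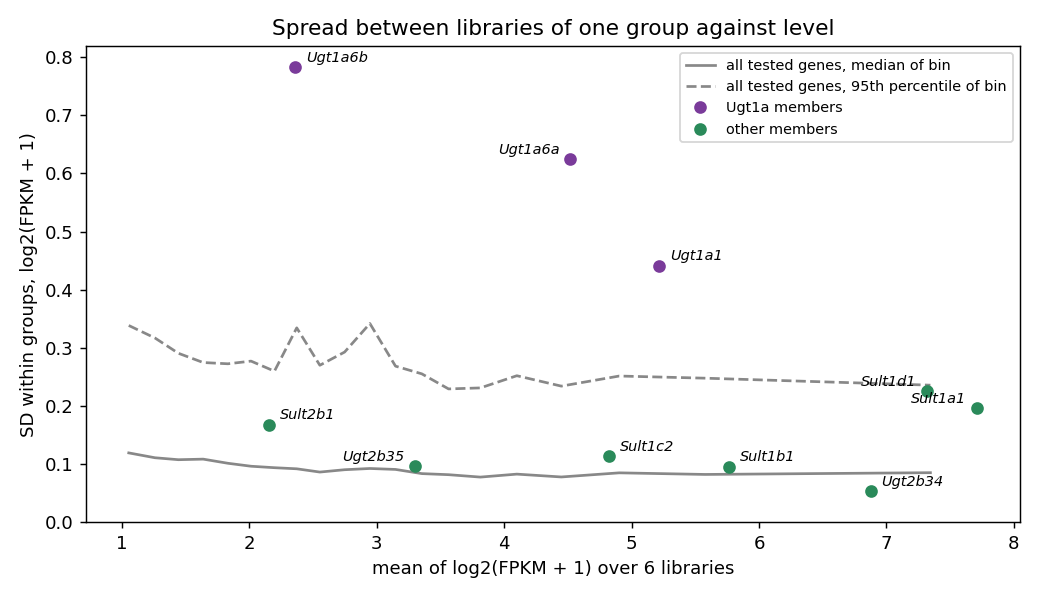
SD of log2(FPKM + 1) within groups against mean level for the 10 members, with the median and 95th percentile of all tested genes in 20 bins of equal size as grey lines. The Ugt1a members, at 0.44 to 0.78, lie above the 95th percentile line and the other members lie below it.

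The 3 Ugt1a members summed to 68.2, 62.8 and 71.0 FPKM with atorvastatin, against 82.6, 65.5 and 43.1 FPKM in control. The SD of that sum within groups was 0.34 on the log2 scale, and the groups overlapped (exact two-sided permutation p = 0.8). The 9 Ugt1a genes summed to 149.3, 135.9 and 149.1 FPKM with atorvastatin, against 157, 140.5 and 117 FPKM in control. The SD of that sum within groups was 0.16 on the log2 scale, and the group difference was 0.076 (exact two-sided permutation p = 0.7, where 0.1 is the smallest that 3 against 3 allows). The largest part, 44.4% to 61.3% of the sum in each library, was Ugt1a7c, a gene of the locus that is not among the members. It had 66.9, 71.7 and 76.96 FPKM with atorvastatin and 69.9, 73.8 and 71.8 FPKM in control. It was the steadiest of the 4 Ugt1a genes tested, with 63.5% of tested genes more variable.

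Replicate 1 of each group differed from the other 4 libraries in how the locus total was divided. Ugt1a6a held 22.2% and 24.5% of it in atorvastatin replicate 1 and control replicate 1, and 11.5% to 13.5% in the other libraries. Ugt1a9 had 5.58 and 4.18 FPKM in these 2 libraries and between 0.226 and 0.456 FPKM in the other libraries. Ugt1a2 had 8.04 FPKM in atorvastatin replicate 1 alone and at most 0.684 FPKM elsewhere. The labels give no batch that would join the replicates of equal number. How reads from the shared exons were divided among the genes is not given in the sources used here, and its part in these shares was not tested.

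**Figure D3:**
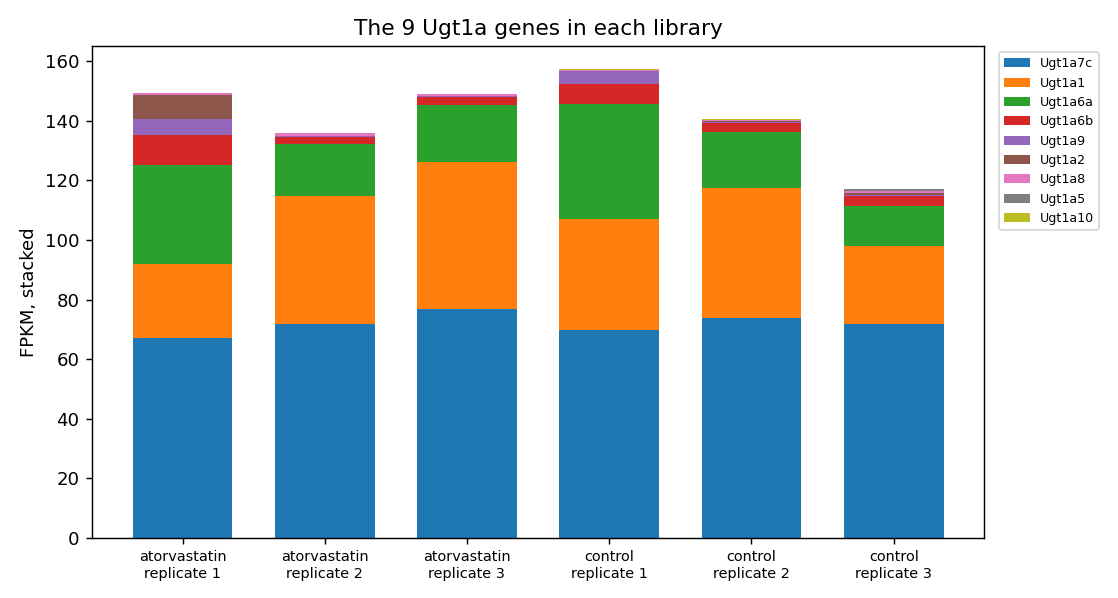
Stacked FPKM of the 9 Ugt1a genes in each library, atorvastatin on the left and control on the right. Ugt1a7c forms a base of 66.9 to 76.96 FPKM in all libraries, and replicate 1 of both groups has a taller Ugt1a6a segment than the others.

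Ugt2b35 came closest to a difference. It and Ugt2b34 belong to the Ugt2b family, which glucuronidates steroids and foreign compounds, and they are neighbours on chromosome 5 (ENSMUSG00000035811, chr5:87000860-87013275, plus strand, and ENSMUSG00000029260, chr5:86889767-86906937, minus strand). Ugt2b35 had 9.94, 10.2 and 10.4 FPKM in the atorvastatin libraries, against 7.51, 8.62 and 7.04 FPKM in the control libraries. Every atorvastatin library was above every control library. The means were 10.2 ± 0.255 FPKM with atorvastatin and 7.72 ± 0.812 FPKM in control (SD, n = 3 each), a ratio of 1.32. The log2 fold change was 0.36 ± 0.074 (SE), with a 95% interval of 0.19 to 0.54. The unadjusted limma p was 0.0016 and 161 tested genes had a smaller one, and the adjusted p of 0.112 did not pass. Over the alternatives the limma adjusted p ran from 0.0658 to 0.503, and the fold change was positive in all of them. Groups without overlap fix that sign in advance when libraries are left out or the pseudocount is changed.

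Ugt2b34 was the most abundant UGT member, at 119, 120.4 and 125 FPKM with atorvastatin and 110.4, 117 and 107 FPKM in control. Its groups did not overlap either, and its lowest atorvastatin library stood just above the highest control library. The log2 fold change was 0.12 ± 0.056 (SE), with an interval of -0.0093 to 0.25 (limma adjusted p = 0.45). Groups without overlap were found in 2 of 10 members, both higher with atorvastatin, and in 18.1% of all tested genes, of which the higher ones made up 12.0% of those tested. The share of members is near that background. The 5 UGT members summed to 199 ± 6.85 FPKM with atorvastatin and 183 ± 22.7 FPKM in control (exact two-sided permutation p = 0.4).

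**Figure D4:**
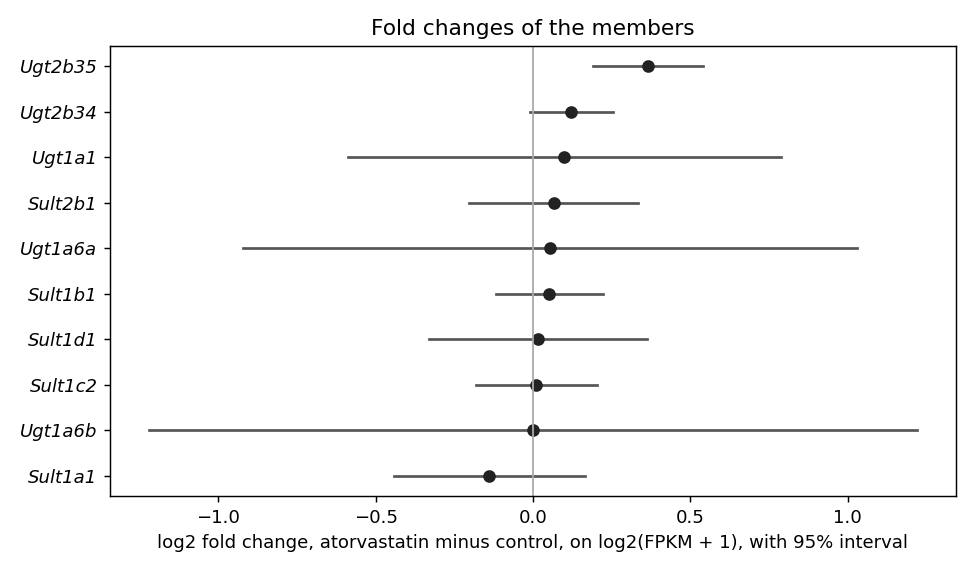
Log2 fold change of each member on the log2(FPKM + 1) scale, atorvastatin minus control, with its 95% interval from limma before adjustment over genes. The interval of Ugt2b35, 0.19 to 0.54, does not reach 0, and those of Ugt1a6a and Ugt1a6b, -0.92 to 1.03 and -1.22 to 1.22, are the widest.

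Among the sulfotransferases, Sult1a1, which sulfates phenols, was the most abundant member (ENSMUSG00000030711, chr7:126672865-126676432, minus strand). It had 214, 183 and 202 FPKM with atorvastatin, against 201, 268 and 195 FPKM in control. Control replicate 2 was the highest library and the groups overlapped. The log2 fold change was -0.14 ± 0.13 (SE), with an interval of -0.44 to 0.16 (limma adjusted p = 0.742). Without control replicate 2 it was 0.0057, so the sign rests on that library.

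Sult1d1 encodes a catecholamine sulfotransferase of rodents (ENSMUSG00000029273, chr5:87554645-87569027, minus strand). It had 155, 148 and 177 FPKM with atorvastatin, against 149.7, 197 and 133 FPKM in control. The control libraries held both the highest and the lowest value. The log2 fold change was 0.017, with an interval of -0.33 to 0.36 (limma adjusted p = 0.978).

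Sult1b1, whose enzyme sulfates phenols and thyroid hormones, lies next to Sult1d1 (ENSMUSG00000029269, chr5:87513339-87538195, minus strand). It had 54.3, 55.4 and 53.8 FPKM with atorvastatin, against 54.9, 55.97 and 47.1 FPKM in control. The atorvastatin libraries lay inside the control range. The log2 fold change of 0.052 had one of the narrowest intervals among the members, -0.12 to 0.22 (limma adjusted p = 0.841), or 0.921-fold to 1.17-fold on the FPKM + 1 scale.

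Sult1c2, of the 1C subfamily (ENSMUSG00000023122, chr17:53829637-53846339, minus strand), had 28.9, 27.4 and 25.9 FPKM with atorvastatin, against 27.2, 30.1 and 24.5 FPKM in control. Sult2b1, whose enzyme sulfates cholesterol and related sterols (ENSMUSG00000003271, chr7:45729983-45784669, minus strand), had 3.02, 4.03 and 3.67 FPKM with atorvastatin, against 3.98, 3.03 and 3.099 FPKM in control. Both genes overlapped between groups. Their log2 fold changes were 0.011 and 0.066, with intervals of -0.18 to 0.20 and -0.20 to 0.33 (limma adjusted p = 0.974 and 0.88). The 5 SULT members summed to 445 ± 24.2 FPKM with atorvastatin and 465 ± 79.4 FPKM in control (exact two-sided permutation p = 0.9). Exons of Sult1a1 overlap Sgf29 on the opposite strand by 61 bases and those of Sult2b1 overlap Lmtk3 and Gm31597 by 321, so some of their reads may belong to those genes.

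FPKM is a value per length, so levels can be ranked between the genes. The places of Ugt1a1, Ugt1a6a and Ugt1a6b also depend on how reads from the shared exons were divided, which is not given. By the mean of 6 libraries the order was Sult1a1 (210.5 FPKM), Sult1d1 (159.9), Ugt2b34 (117), Sult1b1 (53.6), Ugt1a1 (37.4), Sult1c2 (27.3), Ugt1a6a (23.5), Ugt2b35 (8.97), Ugt1a6b (4.72) and Sult2b1 (3.47). Sult1a1 was above Sult1d1 in 6 of 6 libraries although their ranges overlapped. The ranges of neighbours were apart at 3 steps, below Sult1d1, below Ugt2b34 and below Ugt1a6a. At the other 6 steps the ranges overlapped. Of these, Sult1b1 was above Ugt1a1 in 6 of 6 libraries, Ugt1a1 above Sult1c2 and Ugt2b35 above Ugt1a6b in 5 of 6, Sult1c2 above Ugt1a6a in 4 of 6, and Ugt1a6b above Sult2b1 in 3 of 6.

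Within control, the members tended to be high in one library and low in another. Control replicate 2 had the highest control value for 7 of the 10 members, and control replicate 3 had the lowest for 8 and the highest for 0. In atorvastatin no library led for more than 4 members. These orders rest on 3 libraries and are a description. The same counts were not made over all tested genes, so they do not show a trait of the members. The Ugt1a members among them are also not independent. In bulk RNA, a change in the number of cells of one kind cannot be told apart from a change in RNA per cell.

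The aryl hydrocarbon receptor binds DNA at the xenobiotic response element, whose core is GCGTG, or CACGC on the other strand. RefSeq promoter entries (GRCm38.p6) were found for 9 of the members, all but Ugt1a6b, in 11 entries. Over the 250 bases before the start, read on both strands, the core was found in 3 of the 11 entries (27.3%), those of Sult1b1, Sult1d1 and Sult2b1, and in 28.2% of all 32851 promoter entries. A match is a run of letters and does not show binding, and no match says only that these letters are not in this window.

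Other genes of the 2 families and their relatives were mostly silent. Of 17 other UDP-glycosyltransferase genes, a wider group that holds Ugt3a1, Ugt3a2 and Ugt8a, 11 were under 1 FPKM in every library. In this group 3 could be tested, with no call. Ugt2b5 had 14.6 ± 2.08 FPKM with atorvastatin and 13.2 ± 1.52 FPKM in control (limma adjusted p = 0.725). Of 18 other sulfotransferase genes, 17 were under 1 FPKM in every library and 11 were listed at 0 in all 6. Tpst2, which sulfates tyrosines of secreted proteins, was the 1 that could be tested, at 1.99 ± 0.208 FPKM with atorvastatin and 2.22 ± 0.221 FPKM in control (limma adjusted p = 0.685).

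The genes that supply the donors showed no call. All 7 genes of the UDP-glucuronate list were tested, and 0 passed, with a median log2 fold change of 0.038. Ugdh, which makes UDP-glucuronate, had 80.3 ± 13.3 FPKM with atorvastatin and 78.7 ± 5.98 FPKM in control. In the PAPS and sulfate list 8 of 10 were tested and 0 passed, with a median of 0.064. The sulfate carrier Slc13a1 had 0.877 ± 0.122 FPKM with atorvastatin and 1.25 ± 0.102 FPKM in control, with a limma adjusted p of 0.267. The Golgi phosphatase gene Impad1 had 22.8 ± 0.661 FPKM with atorvastatin and 20.6 ± 0.283 FPKM in control (limma adjusted p = 0.302).

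Genes that act after conjugation or control these enzymes also held no call. Of a list of glucuronidase, sulfatase and sulfatase-modifying factor genes, 6 were tested and 0 passed, with a median log2 fold change of 0.049. The lysosomal glucuronidase Gusb had 6.13 ± 0.589 FPKM with atorvastatin and 5.45 ± 0.295 FPKM in control (limma adjusted p = 0.526). Of the efflux pumps, 5 of 6 were tested and 0 passed. Abcc3, which exports glucuronides across the basolateral membrane, had 60.1 ± 2.18 FPKM with atorvastatin and 57.3 ± 3.44 FPKM in control (limma adjusted p = 0.736). Abcc4, another exporter of conjugates, had 2.48 ± 0.319 FPKM with atorvastatin and 1.99 ± 0.105 FPKM in control (limma adjusted p = 0.359).

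A list of 20 genes linked to the control of these families held transcription factors and the regulator Keap1. Of these, 18 were tested and 0 passed, 7 with positive and 11 with negative fold changes and a median of -0.037. Rxra, the partner of several nuclear receptors, had 13.8 ± 0.406 FPKM with atorvastatin and 15.3 ± 0.416 FPKM in control (limma adjusted p = 0.339). Ahr, the aryl hydrocarbon receptor, had 4.50, 3.94 and 4.30 FPKM with atorvastatin, against 4.49, 4.76 and 4.42 FPKM in control, and overlapped. Rora, a nuclear receptor gene named after its values were seen, was below the filter and not tested. It had 0.0567, 0.0399 and 0.0606 FPKM with atorvastatin, against 0.409, 0.475 and 0.378 FPKM in control.

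The libraries held epithelium of the colon by their markers. The 10 colonocyte markers summed to 5175 to 6620 FPKM with atorvastatin and 5202 to 6376 FPKM in control. The 8 general epithelial markers summed to 5335 to 5520 FPKM with atorvastatin and 5602 to 5744 FPKM in control. These sums did not overlap, with 2 positive and 6 negative fold changes. The 10 small intestine enterocyte markers summed to 206 to 238 FPKM with atorvastatin and 178 to 244 FPKM in control. Most of that was Fabp2, and 6 of the 10 were under 1 FPKM in every library. Stromal markers were near 0, with sums of at most 2.25 FPKM for 9 fibroblast and muscle genes and at most 0.723 FPKM for 6 endothelial genes. The 8 hepatocyte markers, checked since liver is rich in these enzymes, summed to 22.3 to 23.1 FPKM with atorvastatin and 18.1 to 20.9 FPKM in control, nearly all from Ttr and Tat, and Cyp2e1, Fgb and Serpina1a were listed at 0. Ttr had 12.6 ± 0.555 FPKM with atorvastatin and 9.51 ± 0.524 FPKM in control, without overlap (limma adjusted p = 0.065). The 6 crypt base markers summed to 78.9 to 80.5 FPKM with atorvastatin and 65.5 to 87.7 FPKM in control, and all 5 of them that were tested had positive fold changes. Lgr5, a marker of intestinal stem cells, had 1.08 ± 0.067 FPKM with atorvastatin and 0.675 ± 0.042 FPKM in control, without overlap (limma adjusted p = 0.142). The 7 goblet cell markers summed to 2714 to 3290 FPKM with atorvastatin and 2688 to 2733 FPKM in control, with 5 positive and 2 negative fold changes. Markers of blood cells were low and lower with atorvastatin. The 10 T and NK cell markers summed to 12.5 to 17.3 FPKM with atorvastatin, against 17.4 to 32.0 FPKM in control, and all 7 of them that were tested had negative fold changes. The 8 B and plasma cell markers summed to 2.58 to 3.35 FPKM with atorvastatin, against 5.13 to 11.5 FPKM in control. The 8 macrophage and dendritic cell markers summed to 3.04 to 3.64 FPKM with atorvastatin, against 4.29 to 9.54 FPKM in control. None of the markers of any list passed the test over all genes. Their part in the values of Ugt2b35 was not tested. Control replicate 3 had the lowest blood cell sums and the lowest hepatocyte sum in control and also the lowest Ugt2b35 value. This library had the lowest control value for 8 of the 10 members, a count that was not made over all tested genes.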

How the data were processed

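Per the labels' protocols, epithelial cells were isolated from the colon, and total RNA was prepared with RNAiso Plus and sequenced by a standard Illumina protocol. The deposited values are FPKM per Ensembl gene, 1 file per library, a unit read from the values (totals of 407857 to 430832 per library, not whole numbers). The submitters' processing notes name the mm10 build, Bowtie and FastQC 0.11.2. The quantifier, annotation, strand setting and treatment of shared reads are not given in the sources used here. Mitochondrial genes took 30.3% to 33.2% of the FPKM total, which scales all others. The depth is unknown.

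A gene table gave symbols for 99.72% of identifiers. Genes that reached 1 FPKM in 3 or more libraries were tested on log2(FPKM + 1) with limma 3.58.1 in R 4.3.3 (trended, robust, two-sided, Benjamini-Hochberg adjustment over 11644 genes). The test was checked on simulated data. Sums were compared by exact permutation of libraries. Exons came from GENCODE M21 and promoters from RefSeq. First exons were aligned with Biopython 1.88. Alternatives changed the pseudocount, filter, scaling, test settings, replicate block and libraries used.

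All members are named. Other genes were named for sharing exons with a member, for being among the 3 smallest p-values of a pathway list or for being among the 3 most abundant genes of a marker list. Ugdh, Ahr, Rora, Lgr5 and the markers listed at 0 were picked outside these rules, after their values were seen. The members and lists were chosen with earlier results of these data known. Sts, of the glucuronidase and sulfatase list, had no match by symbol.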

Additional observations from a re-analysis of the deposited data

How the results depend on the processing

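No member was called under any of the 18 alternatives, and the lowest adjusted p over members and alternatives was 0.0658, for Ugt2b35 without control replicate 2. Of 178 refits of single members, 159 kept the direction and 19 reversed, none of them in Ugt2b34 or Ugt2b35. The filter, test and block settings left each fold change as it was, so those refits could not reverse. For Ugt2b34 and Ugt2b35, whose groups did not overlap, neither leaving libraries out nor changing the pseudocount could reverse the direction. Under median-ratio scaling Sult1c2 and Sult1d1 had log2 fold changes of -0.011 and -0.0063. With libraries left out, the log2 fold change ran from -0.25 to 0.0057 for Sult1a1, -0.024 to 0.097 for Sult1b1, -0.060 to 0.082 for Sult1c2, -0.11 to 0.18 for Sult1d1, -0.0061 to 0.25 for Sult2b1, -0.10 to 0.43 for Ugt1a1, -0.27 to 0.46 for Ugt1a6a and -0.56 to 0.31 for Ugt1a6b. It ran from 0.094 to 0.16 for Ugt2b34 and from 0.31 to 0.44 for Ugt2b35. The log2 difference of the sums ran from -0.15 to 0.083 for the SULT members, from 0.023 (without control replicate 3) to 0.20 (without replicate 1 of both groups, and also without control replicate 1) for the UGT members, and from -0.040 to 0.17 for the 9 Ugt1a genes. The median over the members ran from -0.079 (without control replicate 3) to 0.13 (without control replicate 1). The cause of the reversals was not tested.

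The count of genes called, 47, was 2 with no filter on low values and 0 to 72 with libraries left out (0 without replicate 1 of both groups, where each group has 2 libraries; 7 without control replicate 1 and 72 without control replicate 3), with the set of tested genes unchanged. With the replicate number as a block it was 1, and the limma adjusted p of Ugt2b35 was 0.268. In that fit the SE was 0.15 for Ugt1a6a and 0.17 for Ugt1a6b, and neither was called. The labels do not say that the numbers pair libraries. Same-numbered libraries had correlations of their deviations from the group means of -0.14, -0.11 and 0.014, and no library correlated best with its own number. Deviations from a group mean constrain each other, so these correlations cannot decide whether the numbers pair libraries. They were taken over all tested genes and do not address the Ugt1a locus by itself.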
